A study of Mus musculus with 6 samples.

Results

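The clustered protocadherins are cell-surface adhesion proteins encoded by 3 neighbouring gene arrays, alpha, beta and gamma, and 59 of the 23377 genes in the deposited counts carried their symbols. Members were every gene whose symbol starts with Pcdha, Pcdhb, Pcdhga, Pcdhgb or Pcdhgc and a number, or with Pcdhac and a number, so no measured value chose them. They were 13 genes of the alpha array outside the C-type, 22 genes of the beta array, 12 genes of gamma type A, 7 of gamma type B, and 5 C-type genes (Pcdhac1, Pcdhac2, Pcdhgc3, Pcdhgc4 and Pcdhgc5). One of the alpha genes, Pcdha4-g, is a RefSeq locus whose transcript joins alpha and gamma sequence.

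RNA-seq had been made from hair follicle stem cells of C57BL/6 mice, with 2 libraries of the genotype Ring1a/b-/- (RingKO) and 2 wild-type (WT) libraries. Ring1a and Ring1b are the E3 ligases of PRC1, a Polycomb complex that marks histone H2A with ubiquitin and keeps developmental genes silent. Each library was prepared from 3000 sorted cells with SMART-seq2, an oligo-dT-primed, PCR-amplified method. No source used here gives the age and sex of the mice, the driver and timing of the deletion or the gate of the RNA sort. Nor does any say that libraries came from separate animals, so each p-value reflects the spread between 4 samples, and part of that spread may be technical.

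As background, each member of the alpha and gamma arrays starts from its own promoter and its own large variable exon, which is spliced to constant exons shared by the whole array. Beta genes are single-exon genes with no constant part. In neurons each cell switches on a small, largely random set of alternate members, chosen by CTCF and cohesin looping and held by DNA methylation, while C-type members are used more uniformly. The proteins pair in trans only with matching combinations, which lets a neurite tell itself from others.

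Total counts were 4844381 and 7740945 in the RingKO libraries and 2785843 and 3056593 in the WT libraries. Levels are given as CPM, the count scaled to a common library size after TMM scaling, where 1 count was worth 0.202 and 0.125 CPM in the RingKO and 0.38 and 0.334 CPM in the WT libraries. Replicates correlated at Pearson 0.866 (RingKO) and 0.887 (WT) on log2(CPM + 1) over the genes tested, where genes are not independent replicates. Of the targeted genes, Ring1 stood at 15.5 and 18.4 CPM in RingKO against 31.9 and 29.4 CPM in WT (edgeR adjusted p = 0.551), and Rnf2, which encodes Ring1b, at 151 and 153 against 144 and 87.8 CPM (edgeR adjusted p = 0.532). These are counts over whole genes and do not check the deletion. All 14 listed markers of the sorted cells had counts in every library. Among them, Krt14, Krt15, Trp63 and Lgr5 each had at least 368 counts. Cd34 was the lowest, with 76 and 21 counts in RingKO and 64 and 61 in WT (15.3 and 2.61 against 24.3 and 20.4 CPM). Sox9 was higher in both RingKO libraries, at 172 and 156 against 49.4 and 95.1 CPM. Of the 14, 3 were higher and 2 lower at an unadjusted edgeR p under 0.05, beside 16.6% of all genes tested.

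Alpha genes were close to silent in both genotypes. Of the 13 alpha genes outside the C-type, 9 had no count in any library. The other 4 had a single count each: Pcdha1 in WT replicate 2, and Pcdha3, Pcdha5 and Pcdha7 in RingKO replicate 2. The C-type genes of the same array were as empty, with 1 count of Pcdhac1 in WT replicate 2 and none of Pcdhac2. A gene without a count in a library could have been present at up to 3 counts there, which is 0.606 and 0.373 CPM in the RingKO and 1.14 and 1 CPM in the WT libraries. No alpha fold change is given, since both genotypes stood at or under that limit. Reads in the shared constant exons may be counted for no member or for the wrong one, and no source used here states the counting rule. The same holds for reads that fit both Pcdha4 and Pcdha4-g, which are among the genes without a count. An alpha level below these limits, or carried by constant-exon reads alone, was not detectable.

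The beta array had the most counts in every library, though the gamma array was close in all but RingKO replicate 2. Beta had 165 and 575 counts in RingKO and 119 and 126 in WT. Gamma, with its C-type genes, had 164 and 418 in RingKO and 113 and 108 in WT. Gamma reads in shared constant exons may be missing from these counts, so the order of the 2 arrays is uncertain. The 22 beta genes summed to 33.3 and 71.6 CPM in the RingKO libraries and 45.2 and 42.1 CPM in the WT libraries. RingKO replicate 2 was the highest and RingKO replicate 1 the lowest, so the WT libraries lay between them.

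Counts were concentrated at one end of the beta array. In RefSeq order (GRCm38.p6), the last 7 genes, Pcdhb16 to Pcdhb22, took 86.7% of beta counts in RingKO replicate 1 (Wilson 95% interval 80.6 to 91) and 91.5% in RingKO replicate 2 (88.9 to 93.5). In WT they took 83.2% in replicate 1 (75.5 to 88.8) and 96.8% in replicate 2 (92.1 to 98.8). Per kilobase of gene, their mean level was 0.984 and 1.99 CPM in RingKO and 1.21 and 1.5 CPM in WT, while the first 15 genes averaged 0.0871 and 0.123 CPM per kilobase in RingKO and 0.145 and 0.0245 in WT. The same end was the higher one in all 4 libraries. The boundary at Pcdhb16 was chosen after the values were seen, so it is a description with no test. The intervals cover counting error alone, because reads copied by PCR do not stand for separate molecules.

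Within that end, the genes used differed from library to library. Pcdhb16 had 43 and 317 counts in RingKO and 58 and 0 counts in WT, or 8.68, 39.5, 22 and 0 CPM in that order. It was found in 3 libraries and had no count in WT replicate 2. Its log2 fold change (RingKO over WT) was 1.14 ± 1.52 (SE; edgeR adjusted p = 0.808).

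Pcdhb19 had 0 and 129 counts in RingKO and 10 and 77 in WT, or 0, 16.1, 3.8 and 25.7 CPM. It was the leading beta gene of WT replicate 2, with 61.1% of beta counts there (Wilson 95% interval 52.4 to 69.2), and was without a count in RingKO replicate 1. Its log2 fold change was -0.87 ± 1.72 (edgeR adjusted p = 0.883).

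Pcdhb17 had 37 and 40 counts in RingKO and 15 and 1 in WT, or 7.47, 4.98, 5.7 and 0.334 CPM, with WT replicate 1 inside the RingKO range (log2 fold change 1.05 ± 1.43, edgeR adjusted p = 0.813). Pcdhb20 was the only tested member whose genotypes did not overlap, against 47% of all genes tested. It had 14 and 5 counts in RingKO and 13 and 17 in WT, or 2.83, 0.622, 4.94 and 5.67 CPM, a log2 fold change of -1.63 ± 1.37 (edgeR adjusted p = 0.639).

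Other beta genes, named after their values were seen, were mostly found in 1 library. Pcdhb18 had 44 of its 51 counts in RingKO replicate 1, Pcdhb21 had 26 of 30 in WT replicate 2, Pcdhb14 had 14 of 15 in WT replicate 1, and Pcdhb7 had 25 of 26 in RingKO replicate 2. Pcdhb5 and Pcdhb13 were at low counts in every library, from 1 to 7 and from 1 to 2. Pcdhb2, Pcdhb8 and Pcdhb9 had no count in any library.

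**Figure D1:**
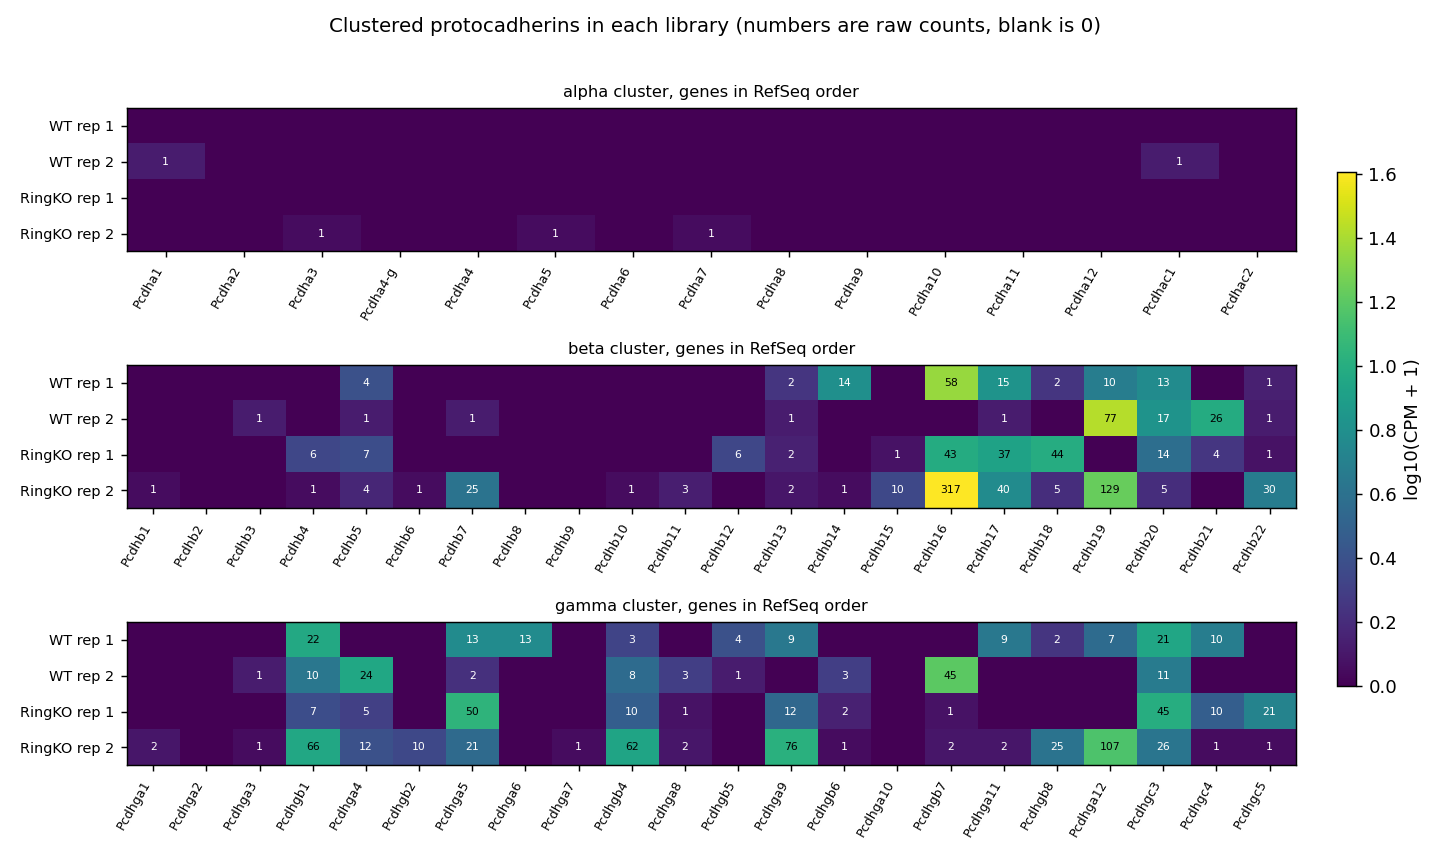
Level of each member (columns, in RefSeq order along each array) in each library (rows), coloured by log10(CPM + 1), with the raw count printed where it is above 0. The alpha array is nearly empty, beta counts lie mostly at Pcdhb16 to Pcdhb22, and the members with high counts change between replicates of a genotype.

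The gamma array was as patchy, with a different leading gene in each library. The lead over Pcdhgc3 was narrow in RingKO replicate 1 (Pcdhga5, 50 counts against 45) and in WT replicate 1 (Pcdhgb1, 22 against 21). Gamma A genes summed to 13.7 and 27.9 CPM in RingKO and 19.4 and 10 CPM in WT, and gamma B genes to 4.04 and 20.7 CPM in RingKO and 11.8 and 22.4 CPM in WT. The genotypes overlapped in both sums.

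Among gamma A genes, Pcdhga5 was found in every library, with 50 and 21 counts in RingKO and 13 and 2 in WT (10.1, 2.61, 4.94 and 0.667 CPM). WT replicate 1 lay between the RingKO libraries, and the log2 fold change was 1.18 ± 1.42 (edgeR adjusted p = 0.777). Pcdhga9 had 12 and 76 counts in RingKO and 9 and 0 in WT (2.42, 9.46, 3.42 and 0 CPM), with a log2 fold change of 1.81 ± 1.7 (edgeR adjusted p = 0.687).

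Pcdhga12 had 0 and 107 counts in RingKO and 7 and 0 in WT, so 1 library of each genotype lacked it. It did not pass the filter on low counts. Pcdhga4 had 5 and 12 counts in RingKO and 0 and 24 in WT, and Pcdhga6, named after its values were seen, had 13 counts in WT replicate 1 and none elsewhere.

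Among gamma B genes, Pcdhgb1 had 7 and 66 counts in RingKO and 22 and 10 in WT (1.41, 8.22, 8.35 and 3.34 CPM; log2 fold change -0.27 ± 1.29, edgeR adjusted p = 0.961). Pcdhgb4 had 10 and 62 counts in RingKO and 3 and 8 in WT (2.02, 7.72, 1.14 and 2.67 CPM; log2 fold change 1.34 ± 1.37, edgeR adjusted p = 0.721). Both were found in all 4 libraries and the genotypes overlapped. Pcdhgb7 had 45 of its 48 counts in WT replicate 2, where it took 41.7% of gamma counts (Wilson 95% interval 32.8 to 51.1), and Pcdhgb8, a transcribed pseudogene in RefSeq, had 25 of 27 in RingKO replicate 2.

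The C-type genes of the gamma array included the most evenly found member. Pcdhgc3 had 45 and 26 counts in RingKO and 21 and 11 in WT, or 9.09, 3.24, 7.97 and 3.67 CPM. It was the only member with at least 10 counts in all 4 libraries, and its log2 fold change was 0.08 ± 1.18 (edgeR adjusted p = 0.99). Its neighbours were less even: Pcdhgc4 had 10 and 1 counts in RingKO and 10 and 0 in WT, and Pcdhgc5 had 21 and 1 in RingKO and none in WT. The 5 C-type genes summed to 15.3 and 3.49 CPM in RingKO and 11.8 and 4 CPM in WT. Pcdhgc3 took 59.2% and 92.9% of their counts in RingKO and 67.7% and 91.7% in WT.

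**Figure D2:**
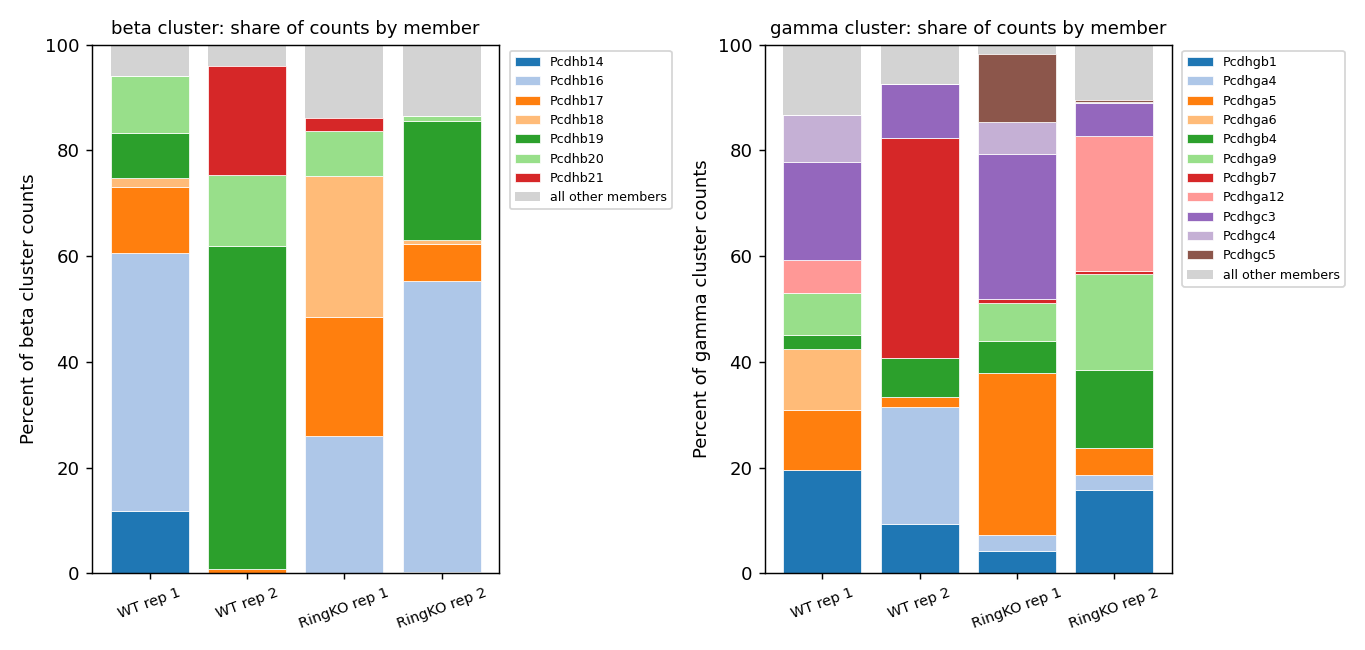
Share of the beta (left) and gamma (right) counts of each library taken by each member, in percent; members under 8% in every library are pooled in grey. Pcdhb16 leads beta in WT replicate 1 and RingKO replicate 2, and Pcdhb19 in WT replicate 2. In RingKO replicate 1, Pcdhb18 (26.7%) and Pcdhb16 (26.1%) are nearly equal. The leading gamma gene is a different one in each library, with Pcdhgc3 close behind it in RingKO replicate 1 and WT replicate 1.

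How far replicates of a genotype differed was counted over every gene with at least 10 counts in a library, with no filter on the other libraries. Of 23 such members, 12 (52.2%) had a library with at least 10 counts beside a replicate of the same genotype with 0. The share was 6.31% of the 14777 such genes in the table, and 13.8% of the 6660 whose highest count did not exceed the 317 of Pcdhb16. That set is capped at the highest member count but not matched to the members in level, and most members reached far fewer counts. The shares are given as a description; members share a locus and arrays, so they are not independent of each other.

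The number of members found also differed with depth. A count was present for 22 and 37 members in the RingKO libraries and for 20 and 21 in the WT libraries. At an equal depth of 2785843 counts, the expected numbers were 19.9 and 26 in RingKO and 20 and 20.1 in WT, so the lead of RingKO replicate 2 was smaller at equal depth. Of the 59 members, 15 had no count anywhere, 15 were found in 1 library, 11 in 2, 9 in 3 and 9 in all 4. Members without a count in WT and with one in RingKO numbered 14, and the opposite 5, where the RingKO libraries were the deeper pair.

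The comparison of RingKO with WT asks whether these genes differ in cells labelled as lacking both PRC1 ligases. Of the 59 members, 9 passed the filter on low counts (4 beta, 2 gamma A, 2 gamma B, 1 C-type and no alpha), and 0 of 9 passed edgeR's quasi-likelihood test at an adjusted p under 0.05, where 0.0609% of the 13134 genes tested did (0 higher beside 0.0533%, and 0 lower beside 0.00761%). At an unadjusted p under 0.05 there were also 0 of 9, against 16.6% of all genes tested. The fitted log2 fold change was above 0 for 6 members and below 0 for 3, with a median of 1.05 beside 0.03 over all genes tested (6871 above and 6263 below 0). The median was -0.36 over the 13 members tested without RingKO replicate 2, 2.35 over the 18 tested without WT replicate 1, 0.12 over the 15 tested without RingKO replicate 1 and 0.79 over the 17 tested without WT replicate 2.

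With no low-count filter 44 members could be tested, 0 passed in edgeR (4.26% of all genes did), and 2 had an unadjusted p under 0.05, beside 15.4% of all genes. DESeq2 called 0 members, where 12.4% of genes with an adjusted p were called, and 1 member, Pcdhgb7, had an unadjusted p under 0.05, beside 19.4% of all genes. The median log2 fold change in DESeq2 was 0.18 over the members it fitted, a wider set than the 9. The authors' deposited table marked 0 of the 59 members as higher or lower, against 8.64% of genes with an adjusted p. The lowest adjusted p there was 0.102, for Pcdhgb7 (log2 fold change -5.04), among 19 members that had one. A mark in that table was not a cut at 0.05, as Fat4, outside the arrays, was marked at 0.0959. The standard errors of the tested members ran from 1.18 to 1.72 on the log2 scale. A change of a few fold in either direction could therefore not be seen, and a much larger one could also be missed. A p above the threshold does not show that the genotypes are alike.

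Class sums overlapped between genotypes too, and no test was run on them. The mean sum in RingKO against WT was 52.5 ± 27.1 against 43.6 ± 2.22 CPM for beta, 20.8 ± 10 against 14.7 ± 6.61 for gamma A, 12.4 ± 11.8 against 17.1 ± 7.49 for gamma B and 9.41 ± 8.38 against 7.89 ± 5.49 for the C-type genes (SD, n = 2). The ratios were 1.2, 1.42, 0.724 and 1.19. Each turned to the other side of 1 when a library was left out: beta was 0.756 and gamma A 0.922 without RingKO replicate 2, gamma B was 1.21 without RingKO replicate 1 and 1.04 without WT replicate 2, and the C-type genes were 0.441 without RingKO replicate 1 and 0.784 without WT replicate 2. In bulk samples, fewer cells using a gene and less RNA per cell cannot be told apart.

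**Figure D3:**
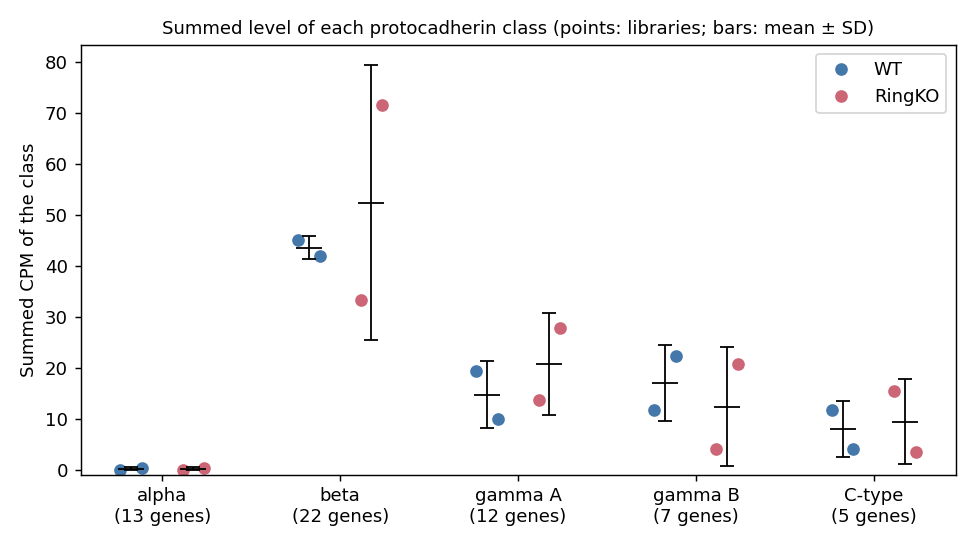
Summed CPM of each class in WT (blue) and RingKO (red) libraries, with mean ± SD (n = 2) in black. In every class the WT and RingKO points overlap, and beta in RingKO spans 33.3 to 71.6 CPM.

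Protocadherins and large cadherins outside the arrays included both patchy and evenly found genes. With no filter on low counts, 14 of the 20 listed had at least 10 counts in a library, and 3 of those 14 (21.4%) had 0 in the other library of that genotype, beside 12 of 23 clustered members. The 3 were Pcdh9 (0 and 26 counts in RingKO), Pcdh17 (27 and 0 in WT) and Cdhr5 (19 and 0 in RingKO), all named after their values were seen. The difference between the lists was not tested.

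Of the 20, 9 passed the filter, and 3 of these (Dchs1, Fat4 and Pcdh18) had no count in WT and passed through the RingKO libraries alone, so their direction was set by the filter. In edgeR 0 of 9 were higher and 0 lower at an adjusted p under 0.05. Over the 6 with a WT count, 2 were higher and 1 lower at an unadjusted p under 0.05 (beside 16.6% of all genes tested), and 4 of 6 did not overlap between genotypes (beside 47%). DESeq2 called 4 higher and 1 lower of the 11 with an adjusted p, beside 12.4% of all genes with one. Of the higher ones, Dchs1 and Cdhr1 had no count in WT, so no other direction was possible for them. For the 6 with a WT count, the median absolute log2 ratio between replicates, on log2(CPM + 1), was 0.11 in RingKO and 0.30 in WT at a median level of 167 CPM. For the 9 tested clustered members it was 1.61 and 1.83 at a median of 4.62 CPM. Over the 3240 tested genes up to the highest mean level of a clustered member (17.5 CPM), it was 0.84 and 0.92.

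The most abundant were Fat1 and Fat2, giant cadherins of epithelial polarity and migration. Fat1 stood at 405 and 519 CPM in RingKO and 476 and 477.5 in WT (edgeR adjusted p = 0.954), and Fat2 at 394 and 379 against 283 and 225 CPM (log2 fold change 0.61 ± 0.19, edgeR adjusted p = 0.174). The next genes are named after their values were seen. Pcdh7, a delta protocadherin, stood at 170 and 191 CPM in RingKO and 289.7 and 348 in WT, with a log2 fold change of -0.82 ± 0.19 (edgeR adjusted p = 0.147). Pcdh19, a delta protocadherin that pairs with N-cadherin, stood at 118 and 121 CPM in RingKO and 25.1 and 76.1 in WT (log2 fold change 1.24 ± 0.45, edgeR adjusted p = 0.226).

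Dchs1, the Dachsous ligand of Fat4 in planar polarity, had 107 and 76 counts in RingKO and none in WT, at least 26.5-fold higher against a floor of 3 counts over the WT libraries (edgeR adjusted p = 0.147). Its receptor Fat4 had 18 and 28 counts in RingKO and none in WT, at least 6.65-fold higher (edgeR adjusted p = 0.202), and Pcdh18 had 17 and 41 and none, at least 8.38-fold higher (edgeR adjusted p = 0.188). The authors' deposited table marked all 3 as higher, with adjusted p-values of 0.000563 for Dchs1, 0.0647 for Pcdh18 and 0.0959 for Fat4, and also marked Pcdh19 (adjusted p = 0.0412) and Cdhr1 (adjusted p = 0.0498). Cdhr1 had 74 and 2 counts in RingKO and none in WT. The authors' deposited table did not mark Pcdh7 (log2 fold change -0.82, adjusted p = 0.000134), so its marks did not follow an adjusted p under 0.05 alone.

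**Figure D4:**
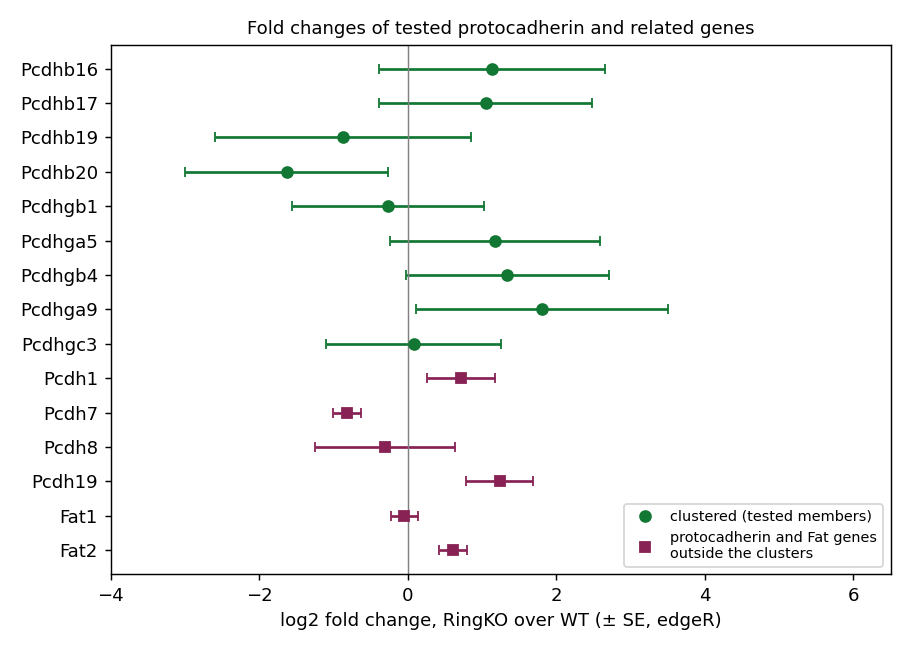
log2 fold change of RingKO over WT with its SE from edgeR, for the 9 tested clustered members (green circles) and 6 protocadherin and Fat genes outside the arrays with WT counts (purple squares). The clustered members have SEs of 1.18 to 1.72, while Fat1, Fat2 and Pcdh7 have SEs of about 0.19.

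Genes that control the arrays were expressed in both genotypes. Of 26 regulators tested, 0 rose and 0 fell at an adjusted p under 0.05 in edgeR, beside 0.0609% of all genes tested. At an unadjusted edgeR p under 0.05, 1 was higher and 3 lower, beside 16.6% of all genes tested. Their median log2 fold change was -0.02. DESeq2 called 1 higher (Dnmt3a) and 3 lower (Cbx3, Cbx5 and Uhrf1) of the 26, beside 12.4% of genes with an adjusted p. The most abundant were Cbx5, which encodes the heterochromatin protein HP1 alpha, at 464 and 448 CPM in RingKO and 614 and 567 in WT (edgeR adjusted p = 0.309; 0.0416 and not marked in the authors' deposited table), and the cohesin loader Nipbl, at 340 and 355 against 282.5 and 385 CPM (edgeR adjusted p = 0.944). Ctcf stood at 173 and 165 against 136 and 204 CPM, and Smchd1, a repressor of the arrays, at 182 and 120 against 162 and 206 CPM, with overlapping genotypes in both.

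The de novo methyltransferase Dnmt3a stood at 173 and 158 CPM in RingKO and 52.4 and 87.4 in WT, a log2 fold change of 1.24 ± 0.28 that did not pass in edgeR (adjusted p = 0.147); the authors' deposited table marked it as higher (adjusted p = 0.000289). Cbx3, which encodes HP1 gamma, stood at 270 and 215 CPM in RingKO and 427 and 388 in WT (log2 fold change -0.75 ± 0.19, edgeR adjusted p = 0.149), and Uhrf1, which recruits the maintenance methyltransferase, at 198 and 200 against 295 and 249 CPM (-0.45 ± 0.18, edgeR adjusted p = 0.272). Their adjusted p-values in the authors' deposited table were 0.000461 and 0.0487, and neither was marked. Dnmt3b, an enzyme known to methylate protocadherin promoters, stood at 18 and 6.72 against 19 and 7.01 CPM. Ctcf, Smchd1, Dnmt3a, Dnmt3b, Cbx3 and Uhrf1 were picked from the regulator list after their values were seen.

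Known binding partners and processing enzymes gave 0 higher and 0 lower of 20 tested in edgeR (median log2 fold change -0.09). At an unadjusted edgeR p under 0.05, 1 was higher and 0 lower, beside 16.6% of all genes tested. DESeq2 called 1, the kinase Fyn, as higher, beside 12.4% of genes with an adjusted p. Ctnnb1, which encodes beta-catenin, stood at 380 and 299 CPM in RingKO and 438 and 445 in WT, and Marcks at 332 and 309 against 364 and 396.

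Genes beside or between the arrays gave 0 higher and 0 lower of 16 tested in edgeR (median log2 fold change -0.16). At an unadjusted edgeR p under 0.05, 0 were higher and 2 lower, beside 16.6% of all genes tested. DESeq2 called 0 higher and 2 lower, Ik (adjusted p = 0.00656) and Ndufa2 (adjusted p = 0.0157), beside 12.4% of genes with an adjusted p. Ik, upstream of the alpha array, stood at 135 and 142 CPM in RingKO and 203.5 and 209 in WT (log2 fold change -0.58 ± 0.19, edgeR adjusted p = 0.187), and Zmat2 at 153 and 132 against 160 and 170 CPM. Taf7, between the beta and gamma arrays, was found steadily at 60 and 76.3 against 51.3 and 52.1 CPM, while Slc25a2 beside it had 7 and 0 counts in RingKO and 0 and 17 in WT; these 2 were picked after their values were seen.

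Markers of other cell types that could bring clustered protocadherin RNA were read in the same libraries. The 12 neuronal markers summed to 49.3 and 75.6 CPM in RingKO and 65.7 and 44.4 in WT, with Map2 alone at 21 and 51.8 against 38 and 32.4 CPM, and Elavl4 and Gap43 at 0 in all 4 libraries. The 9 Schwann and nerve markers summed to 76.5 and 166 CPM in RingKO and 101 and 92.4 in WT, with Sox10 at 0 in all 4. The 8 Merkel cell markers summed to 95.1 and 121.5 against 7.97 and 34 CPM. The 7 melanocyte markers summed to 187 and 133 against 194 and 197 CPM, the 10 fibroblast and dermal papilla markers to 425 and 287 against 696 and 836, the 10 leukocyte markers to 957 and 412.5 against 207 and 157.5 (with Cd207 at 0 in all 4), and the 5 endothelial markers to 2.63 and 0.747 against 14.4 and 38 (with Emcn at 0 in all 4). The Merkel and leukocyte sums were higher in both RingKO libraries than in both WT libraries, and the fibroblast, endothelial and melanocyte sums were lower in both. Some sums rested largely on 1 gene: Dcn (fibroblast) stood at 272 and 159 against 593.5 and 430 CPM, and Kit (melanocyte) at 117 and 87 against 127 and 109. Krt8 (23.2 and 49.55 against 4.56 and 20 CPM) and Krt18 (39.4 and 41 against 3.42 and 5.34) gave much of the Merkel sum. Sox2, Isl1 and Piezo2 were also higher in both RingKO libraries. Atoh1, Krt20 and Chga had 0 to 7 counts in a library, and their genotypes overlapped. Alpl (37.2 and 56.5 against 14.8 and 1.67 CPM) and Pdgfra (6.66 and 12.2 against 0.38 and 6.34) of the fibroblast list were higher in both RingKO libraries. Of 8 tested in that list, 1 was higher and 3 lower at an unadjusted edgeR p under 0.05 (beside 16.6% of all genes tested). The neuronal, Schwann and Merkel sums were highest in RingKO replicate 2, as were the beta and gamma A sums. The gamma B sum was instead highest in WT replicate 2 (22.4 CPM, beside 20.7 in RingKO replicate 2). The C-type sum was highest in RingKO replicate 1 (15.3 CPM) and lowest in RingKO replicate 2 (3.49 CPM). Gfra3 alone gave 48.5 and 118 CPM of the Schwann sum in RingKO and 82.8 and 58.1 in WT. The part of any of these cell types in the protocadherin counts was not tested.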

How the data were processed

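The authors deposited raw counts, 1 whole number per gene symbol and library. The submitters' processing notes name TopHat2 2.1.1, Bowtie 1.2.2, HTSeq 0.7.2 and DESeq2, with build mm9; no source used here gives their settings, the annotation or the use of strand. The authors' deposited comparison table gives, per the file headers, log2 fold changes and adjusted p-values of RingKO over WT.

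The test was edgeR 4.0.16 in R 4.3.3, using filterByExpr, TMM and a robust quasi-likelihood fit with genotype as the only term (Benjamini-Hochberg over 13134 genes, threshold 0.05), after a test on simulated data. Alternatives were DESeq2 1.42.0, limma-voom 3.58.1, other scaling and filters, each library left out, and a replicate block. SE is the fold change over the square root of F. Array order and beta gene lengths came from RefSeq GRCm38.p6, which matched 59 of 59 members. Ring1b peak lists were not used here, having no mm9 annotation. Members, lists and tests were chosen with earlier results of these data known. Named members were, per class, the 4 of highest mean CPM and the 2 of lowest p, all C-type genes and any past the threshold. From each list the members past the threshold were named, or else the 2 of highest mean CPM.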

Additional observations from a re-analysis of the deposited data

How the results depend on the processing

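The count of 0 clustered protocadherins past the threshold was the same in every alternative run. The number of genes called over the whole table was 8 in edgeR and moved to 1792 in DESeq2, 0 in limma-voom (1956 at an unadjusted p under 0.05), 802 with no low-count filter, 1 with at least 1 CPM in 2 libraries, and 0 to 60 with a library left out (the 0 came without RingKO replicate 2, with 1098 genes at an unadjusted p under 0.05). Medians are over the members each setting could test: that of all members was 1.05, 0.0698 with at least 1 CPM in 2 libraries and 0.18 in DESeq2. Beta moved from 0.09 to 1.86 and gamma A from 1.49 to 0.0744 with no low-count filter, and gamma A to -0.49 in DESeq2. With a library left out the ranges were -0.36 to 2.35 for all members, -0.64 to 2.35 for beta, -0.0702 to 5.6 for gamma A, -3.52 to 1.03 for gamma B and -0.84 to 3.63 for the C-type genes.

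Signs turned for 5 of the 9 tested members when a library was left out; Pcdhga9 and Pcdhgb4 were not fitted without RingKO replicate 2. The log2 fold change ranged from -0.36 (without RingKO replicate 2) to 10.02 (without WT replicate 1, leaving a WT library at 0) for Pcdhb16, -8.71 to 1.08 for Pcdhb19 (0.12 without RingKO replicate 1, 1.08 without WT replicate 2), -0.0929 (without RingKO replicate 1) to 3.20 for Pcdhga5, -2.04 to 0.55 for Pcdhgb1 (0.49 without RingKO replicate 1, 0.55 without WT replicate 1) and -0.84 (without RingKO replicate 1) to 0.74 for Pcdhgc3 (-0.40 without WT replicate 2). Fits against a library at 0 depend on the prior count and are no bound. Pcdhgc3 also turned in limma-voom (-0.16).

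No label says what the replicate numbers mark, and deviations of replicate 1 correlated at -0.14 between genotypes over 13134 genes. A replicate block gave 416 genes and 0 members. The crossed pairing, a replicate block chosen after the data were seen, gave 8 genes and 0 members, with Pcdhgc3 at -0.0065.

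Depth limits the members: 23 of 59 reached 10 counts in a library, and the cause of their spread between replicates was not tested.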
